A study of Mus musculus with 162 samples.

Results

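The cytosolic ribosomal protein genes were followed in single cells of the embryonic mouse brain. A gene was taken as a member when its symbol was Rpl or Rps followed by a number and an optional letter or l, or when it was Rplp0, Rplp1, Rplp2 or Rpsa. Pseudogenes and the Rps6 kinases were left out. The rule gave 82 of the 22800 genes in the normalized table, 50 of the large and 32 of the small subunit. The rule works on the symbol only, so it misses genes of the same proteins or close copies that are named otherwise, among them Fau, Rack1, Rps3a1, Rpl22l1, Rpl7l1 and Rps27rt, which are given beside the members where they bear on a result.

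In the study, the cytosol of single neural cells was drawn into a patch-clamp pipette at E17.5 to E18.5 and sequenced, 1 cell to a library. The cells came from 3 driver lines, named the Lhx6 Cre line, the Nex Cre line and the Htr3a Cre line. Of 162 cells, 148 passed the quality control given in the labels: 17 of the Lhx6 line, 17 of the Nex line and 114 of the Htr3a line. A driver line marks the cells in which its promoter is or was active. Whether a given cell carried the mark was not examined, and the Htr3a line gave cells of every type label.

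By type label, the passed cells were 18 MGE-derived 1 cells (7 of the Lhx6 and 11 of the Htr3a line), 24 MGE-derived 2 cells (7 and 17), 11 CGE-derived cells and 12 Cajal Retzius cells (all of the Htr3a line). A further 4 were labelled GABAergic (1 of the Lhx6 and 3 of the Htr3a line) and 11 VZ-derived (1 of the Lhx6, 2 of the Nex and 8 of the Htr3a line). There were 33 Glutamatergic 1 cells (10 of the Nex and 23 of the Htr3a line), 13 Glutamatergic 2 cells (1 and 12) and 22 Undefined cells (1 of the Lhx6, 4 of the Nex and 17 of the Htr3a line). MGE and CGE are the medial and caudal ganglionic eminences, where cortical interneurons are born, and VZ is the ventricular zone, where progenitors divide. The labels name no animal, litter or culture. Each group therefore stands for 1 sample, no test between groups was possible, and the SDs below are between cells. The line, its animals and the way they were processed cannot be told apart.

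The ribosome is built of a small subunit, which reads the mRNA, and a large subunit, which joins the amino acids. Each carries ribosomal RNA and a fixed set of proteins in near-equal proportion, so most of these genes are expressed in every type of cell. The levels of their mRNAs need not be equal. In mammals their mRNAs are short and very abundant, and they begin with a C and a run of pyrimidines, the terminal oligopyrimidine tract, through which mTOR signalling and the protein Larp1 set their translation. Neurons also carry these mRNAs into growing axons and dendrites.

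The start of a ribosomal protein mRNA is shown for 9 members, because the pyrimidine run is the feature by which these mRNAs are regulated together. The windows are from RefSeq (build GRCm38.p6), run from 35 bases before the annotated start to 15 bases from it, and carry in capitals the run of C and T that opens with C at the annotated start. The first 8 have such a run and the last, the paralog of Rps27, has none at this start.
Rpl35 (chr2:39005117-39005166, minus strand): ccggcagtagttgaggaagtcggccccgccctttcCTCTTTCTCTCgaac
Rpl15 (chr14:18270972-18271021, minus strand): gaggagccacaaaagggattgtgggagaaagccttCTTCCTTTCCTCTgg
Rpl38 (chr11:114668545-114668594, plus strand): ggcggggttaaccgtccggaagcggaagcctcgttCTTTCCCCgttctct
Rplp2 (chr7:141447616-141447665, plus strand): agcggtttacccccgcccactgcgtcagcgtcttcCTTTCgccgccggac
Rps6 (chr4:86857353-86857402, minus strand): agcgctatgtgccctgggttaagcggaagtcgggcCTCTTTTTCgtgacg
Rps10 (chr17:27635230-27635279, minus strand): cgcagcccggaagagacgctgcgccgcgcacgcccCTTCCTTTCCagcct
Rps18 (chr17:33955651-33955700, minus strand): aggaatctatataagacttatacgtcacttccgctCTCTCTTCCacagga
Rps27 (chr3:90213634-90213683, minus strand): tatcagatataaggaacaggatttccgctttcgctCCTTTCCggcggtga
Rps27l (chr9:66946051-66946100, plus strand): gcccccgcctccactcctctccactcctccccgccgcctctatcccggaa

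Of the 82 members, 61 matched a promoter entry by symbol, and 10 of them had more than 1 annotated start. A C followed by 4 bases that are each C or T stood exactly at an annotated start in 13 of the 61 members (21.3%), against 813 of all 27025 genes with an entry (3.01%). Letting the motif begin anywhere within 10 bases of the start gave 38 members (62.3%), against 34.4% of all genes. Annotated starts can lie some bases from the base at which transcription begins, so a missing run says only that these letters are not at that position. Within the 300 bases around the start, on either strand, CTTCCGG was held by 25 members (41.0%), against 9.93% of all genes. TCTCGCG was held by 13 members (21.3%), against 2.92%. GGGCGG was held by 37 members (60.7%), against 38.2%, and AAGATGG by 9 members (14.8%), against 7.28%. TATAAA was held by 6 members (9.84%), against 15.7% of all genes. Matches of these 5 motifs may overlap one another, and each is a run of letters, not a measured binding site.

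The ribosomal protein genes were found in nearly every cell. Levels are reads per gene scaled to the cell's total count (CPM). Rps19 had a count in all 148 cells, 57 members in at least 90% of the cells and 78 in at least 50%. A cell held counts of 30 to 81 members, with a median of 76. Together the members took between 0.629% and 9.48% of a cell's counts, with a median of 1.69%. The total count of a cell lay between 1710224 and 24836041, and 2066 to 14810 genes had a count. The number of members with a count ran with the number of genes found in the cell (Spearman rho 0.82 over 148 cells), whereas the summed percentage did so weakly (rho 0.20). These correlations share the library and its depth.

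Levels are compared between members per kilobase of the principal transcript. The highest were Rps19 (788 CPM per kb), Rpl13 (752), Rps14 (736), Rpl41 (700), Rps18 (624), Rpl32 (603), Rps2 (588) and Rpl10 (571), as mean CPM per kb over all cells. Rps19, needed for maturation of the small subunit, had a mean of 499 ± 389 CPM (SD between 148 cells). Rpl41, which encodes one of the smallest known proteins, had a mean of 306 ± 291 CPM. The SDs are nearly as large as the means, so neighbours in this order do not differ beyond their spread between cells. Rps2 had 587 ± 457 CPM and Rpl10, one of the last proteins to join the large subunit, 457 ± 353 CPM.

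The 5 lowest per kilobase were Rpl10l, Rpl3l, Rpl39l, Rps15a and Rps20. Rps15a (34.5 CPM per kb) and Rps20 (45.7 CPM per kb) stand low because their chosen transcripts have 5179 and 3706 bases, whereas the median member has 802. Per gene they had means of 179 ± 207 and 170 ± 196 CPM. The next lowest were Rps4l (57.9 CPM per kb) and Rpl22 (66.7 CPM per kb). The median over the 78 members found in at least 50% of the cells was 290.4 CPM per kb.

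**Figure D1:**
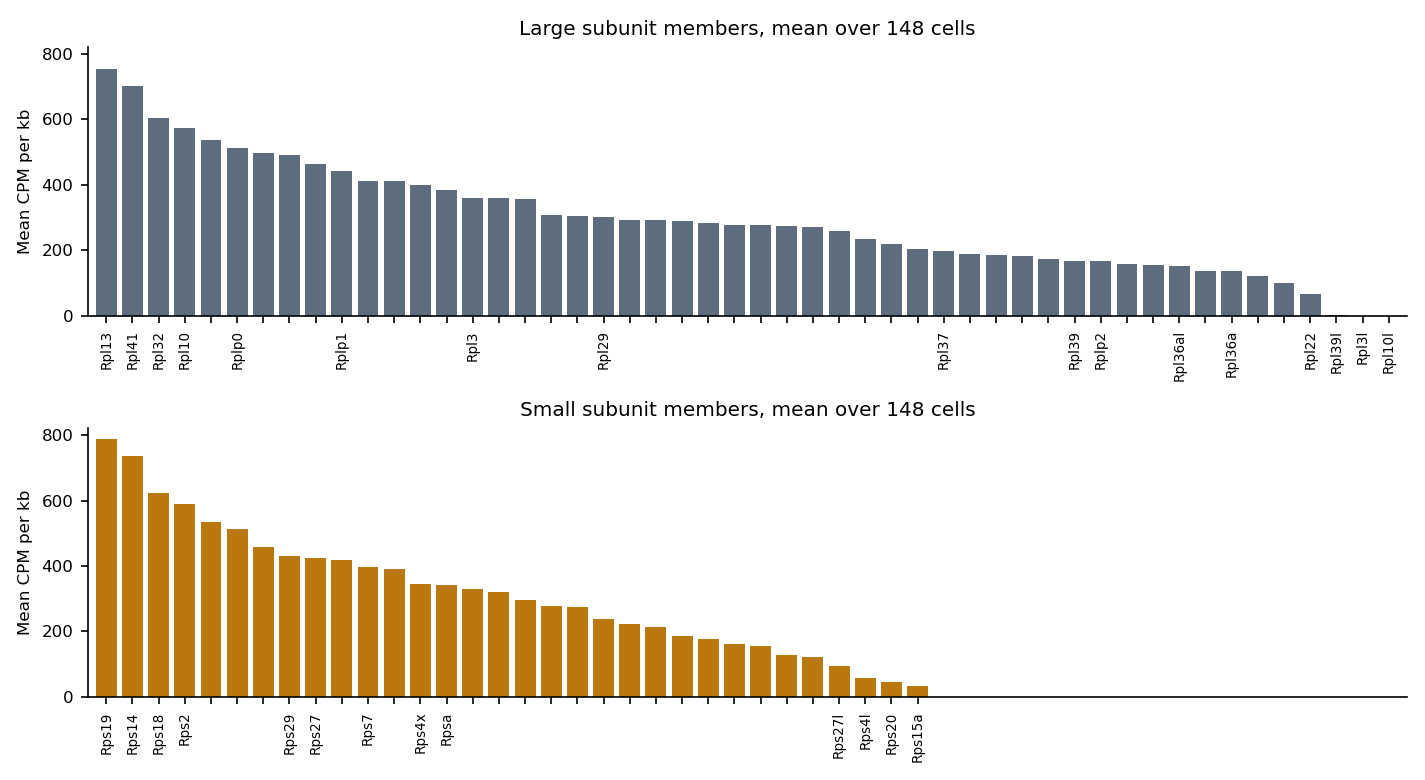
Mean level of each member over the 148 passed cells, in CPM per kilobase of its principal transcript (bars), with large subunit members above and small subunit members below. Rps19 was highest at 788 and Rpl13 next at 752, and the bars of Rpl39l, Rpl3l and Rpl10l are at the baseline. Names are given for some of the members that the text describes.

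The testis and muscle paralogs were all but missing. Rpl10l, the testis paralog of the X-linked Rpl10 in mouse, had a single count in 1 of 148 cells, a CGE-derived cell. Rpl3l, the muscle paralog of Rpl3, had counts in 5 cells, at most 23 in a cell. Rpl39l, the paralog of Rpl39 known from testis, had counts in 2 cells: 412 in a GABAergic cell and 1 in a Glutamatergic 2 cell. The parent genes were abundant, with 457 ± 353 CPM for Rpl10, 484 ± 374 CPM for Rpl3 and 101 ± 127 CPM for Rpl39 over the same cells.

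The other paralogs were common but patchy. Rpl36al, a copy of the X-linked Rpl36a, had a count in 112 of 148 cells and a mean of 79.1 ± 89.0 CPM, beside 65.8 ± 101 CPM in 118 cells for Rpl36a. Rps27l, a p53-responsive copy of Rps27, had a count in 88 cells and a mean of 46.8 ± 60.3 CPM, beside 146 ± 111 CPM in 140 cells for Rps27. Rps4l had a count in 64 cells, in 62 of them together with the X-linked Rps4x (131 cells, 337 ± 350 CPM), and its level was 54.6 ± 95.9 CPM. Copies that share sequence may exchange reads. Of the 82 members, 40 shared at least 50% of their 50-base stretches with transcripts of other genes. Among them were Rps27 (98.6%), Rpl36a (85.5%) and Rpl36al (63.3%), whereas Rps27l shared 22.4% and Rps4l 14.9%.

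Rps27l differed in how often it was found between type labels. It had a count in 11 of 33 Glutamatergic 1 cells, against 10 of 13 Glutamatergic 2 cells, and averaged 20.4 ± 43.9 CPM in Glutamatergic 1 cells and 47.7 ± 48.7 CPM in Glutamatergic 2 cells. The Glutamatergic 1 cells also held fewer genes, a median of 4954 against 7585 in Glutamatergic 2 cells. Highest by mean were VZ-derived cells (84.4 ± 98.2 CPM, 8 of 11 cells) and CGE-derived cells (76.4 ± 75.5 CPM, 9 of 11), and the ranges overlapped.

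Rps4l was found in few cells of the Nex line. It had a count in 1 of 17 Nex cells (5.88%, exact 95% binomial interval 0.149% to 28.7%), against 56 of 114 Htr3a cells (49.1%, interval 39.6% to 58.7%). In Lhx6 cells it had a count in 7 of 17 (41.2%, interval 18.4% to 67.1%). The intervals cover counting of cells only. The lone Nex cell had 142 CPM. Among Htr3a cells with a count, Rps4l ranged from 0.0711 to 666 CPM with a median of 112. Within the Glutamatergic 1 label, 1 of 10 Nex cells had a count (interval 0.253% to 44.5%), against 11 of 23 Htr3a cells (interval 26.8% to 69.4%), and these intervals overlap. Thinning every cell to 1700000 reads gave 1 of 17 Nex, 7 of 17 Lhx6 and 53 of 114 Htr3a cells. Rps4x itself was found in 14 of 17 Nex cells and 102 of 114 Htr3a cells. The Nex cells held fewer genes, a median of 4343 against 5659 in Htr3a cells, and the part of this in the result was not tested.

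**Figure D2:**
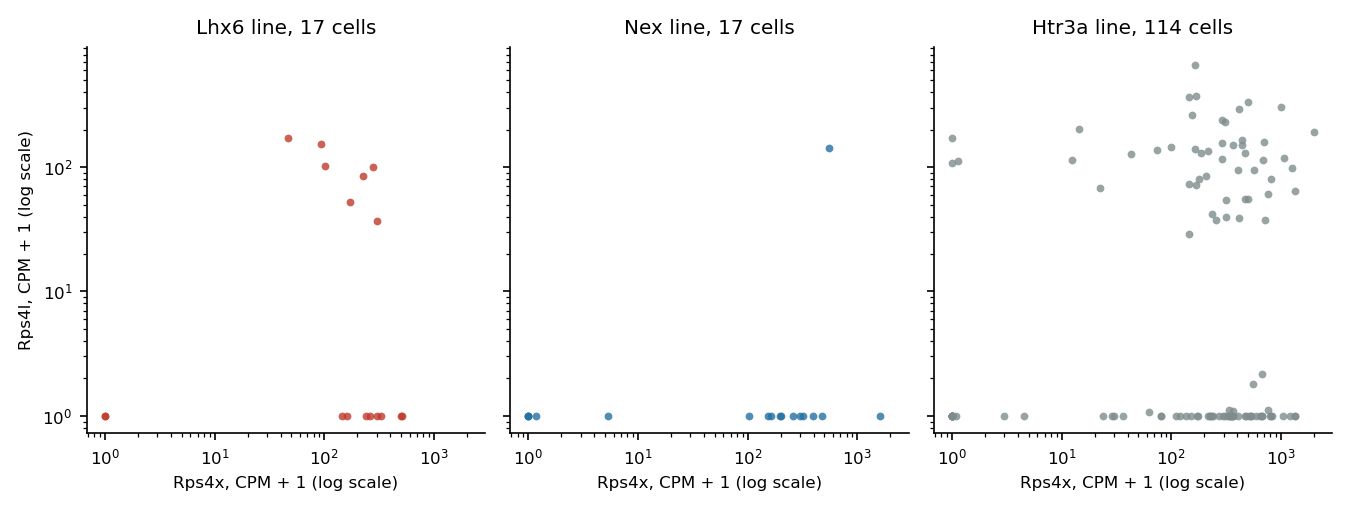
Level of Rps4l (vertical) against its X-linked paralog Rps4x (horizontal), both as CPM + 1 on log scales, with 1 point per cell and 1 panel per driver line. In the Nex panel 1 of 17 cells lies above the baseline in Rps4l, whereas 7 of 17 Lhx6 cells and 56 of 114 Htr3a cells do.

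The members varied together from cell to cell. Over the 148 cells, each of the 78 members found in at least 50% of them was set against the sum of all other members. Spearman's rho had a median of 0.56 and ran from 0.24 to 0.78. Against the summed level, the 5101 other genes found as widely had a median rho of 0.03, and 11 of them (0.216%) were above the members' median. Rps19 (0.78) and Rpl13 (0.74) were among the most like the rest, and Rpl36al (0.24), Rpl10a (0.25) and Rpl6 (0.28) least. The large and the small subunit sums ran together (rho 0.92 over 148 cells). Within lines the median rho of the members was 0.36 over 17 Lhx6 cells, 0.28 over 17 Nex cells and 0.60 over 114 Htr3a cells. All these values share the cells' libraries and the CPM scaling, and are given with no test.

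**Figure D3:**
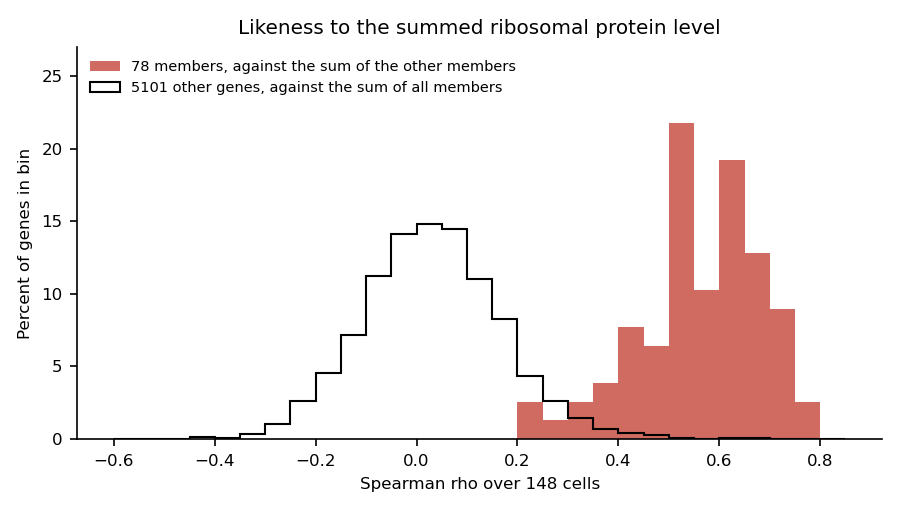
Spearman's rho over 148 cells between a gene and the summed ribosomal protein level (horizontal), as the percent of genes in each bin (vertical), for 78 members (filled; each against the sum of the other members) and 5101 other genes (line). The members centre at 0.56 and the other genes at 0.03.

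Among the 10 other genes most like the summed level were Gm10076, Ftl1, Wdr38, Rps3a1, Tlcd1, Tpt1, Eef1a1 and Ptma, with rho between 0.58 and 0.73 over 148 cells. Rps3a1 (rho 0.66) encodes a ribosomal protein itself. Eef1a1, the elongation factor that brings tRNAs to the ribosome (0.62), and Tpt1, the translationally controlled tumour protein (0.65), also start with an oligopyrimidine tract. Ftl1, the ferritin light chain (0.69), is known for translational control by iron. Of the others, Gm10076 (0.73), a lincRNA in the annotation, shared 69.9% of its 50-base stretches with transcripts of members. Wdr38 (0.68) overlaps Rpl35 and Tlcd1 (0.65) overlaps Rpl23a, both on the opposite strand. Reads of such pairs cannot be told apart without strand, and the sources used here do not say that strand was counted. Among the 5 genes lowest in rho were Rsrp1 (rho -0.52), Cpe (-0.46), Syngr3 (-0.45) and Zcchc18 (-0.44). Cpe processes neuropeptides and Syngr3 is a protein of synaptic vesicles.

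Lists of other translation genes had a lower likeness. The median rho with the summed level was 0.39 over 8 other oligopyrimidine mRNAs, 0.27 over 7 elongation factors, 0.13 over 52 mitochondrial ribosomal proteins and 0.08 over 31 initiation factors. It was 0.06 over 18 ribosome biogenesis factors and 0.05 over 7 genes of the mTOR pathway. The summed percentage also ran with the percentage of mitochondrial transcripts (rho 0.41 over all 148 cells, 0.55 over Lhx6 cells, 0.57 over Nex cells and 0.53 over Htr3a cells). It ran as well with the percentage of ribosomal RNA, that of mitochondria included (rho 0.53 over 148 cells). The mitochondrial and ribosomal RNA percentages may therefore share counts.

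Set by type label, the summed level differed less between types than between cells of a type. Its median was 1.91% of counts in MGE-derived 1 cells, 1.75% in MGE-derived 2, 2.23% in CGE-derived, 2.65% in GABAergic, 1.69% in VZ-derived and 1.78% in Cajal Retzius cells. It was 2.23% in Undefined, 1.63% in Glutamatergic 1 and 1.41% in Glutamatergic 2 cells. Within a label the lowest and highest cells lay far apart, from 0.714% to 9.48% in MGE-derived 2 and from 0.629% to 7.61% in Glutamatergic 1 cells. Ordered by their medians, no neighbouring labels differ beyond this spread. Of the 78 members found in at least 50% of the cells, 53 had their highest mean in the GABAergic label and 49 their lowest in Glutamatergic 2, but the GABAergic label rests on 4 cells, of which 1 had 6.18%. The same count was not made over all genes, so neither number can be read as particular to the members. The labels fit their markers in the summed CPM of marker lists, except that radial glia markers had a median of 0 in VZ-derived cells (counts in 5 of 11), which held glutamatergic markers (median 1380 CPM). Microglia markers reached 15760 CPM in single cells, and 27 cells had at least 3 of the 10 microglia genes at 10 or more counts.

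**Figure D4:**
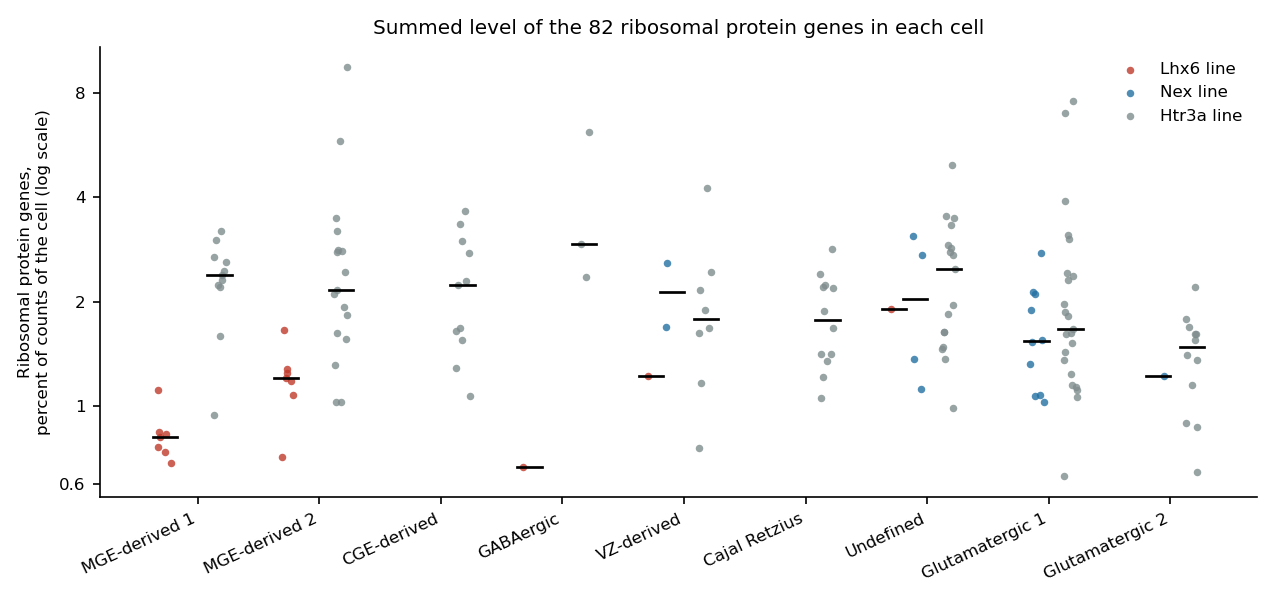
Percent of a cell's counts in the 82 ribosomal protein genes (vertical, log scale) for each of the 148 passed cells (points) by type label and driver line, with the median of each group (black line). In MGE-derived 1 cells, 6 of 7 Lhx6 cells lie below every Htr3a cell.

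The GABAergic classes (MGE-derived 1 and 2, CGE-derived and GABAergic) were set against both glutamatergic labels, since the labels divide the neurons first in this way. The summed level was 2.18 ± 1.496% of counts in 57 GABAergic cells and 1.90 ± 1.34% in 46 glutamatergic cells, a difference of 0.15 on the log2 scale (log2 of CPM + 1, mean of cells). That is less than the SD between cells of 0.84 in GABAergic and 0.72 in glutamatergic cells. Within the Htr3a line it was 0.45 (42 and 35 cells), and without the cells that held 3 or more microglia genes it was 0.02 (48 and 40 cells). Members enter a comparison when 10% or more of the cells in one of its groups hold a count. Of 79 such members, 6 were higher in GABAergic cells by 1 log2 unit or more and 0 lower, against 6.07% higher and 9.74% lower over 13139 genes. The members' median difference was 0.19, that of all these genes -0.02.

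Rpsa, the laminin receptor that is also a small subunit protein, led. It ranged from 0 to 2851 CPM with a median of 592 in GABAergic cells, and from 0 to 2957 with a median of 348 in glutamatergic cells. The mean log2 difference was 1.46 (SD between cells 2.43 and 3.37), so the groups overlap widely. Rpl32 followed with a difference of 1.22, then Rps27l (1.16) and Rpl23a (1.09). The lowest were Rpl38 (-0.75), known in mouse for its part in patterning the axial skeleton, Rpl12 (-0.60), Rps24 (-0.56) and Rpl11 (-0.50), an activator of p53. By summed counts Rpl38 stayed below 0 (-0.42), whereas Rpl12 (0.03), Rps24 (0.27) and Rpl11 (0.25) were above it.

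Among Htr3a cells, the summed level was 2.61 ± 1.65% of counts in the 28 cells with an MGE label and 2.23 ± 0.864% in the 11 CGE-derived ones, a log2 difference of 0.15, below both SDs between cells (0.70 and 0.58). Without the cells that held microglia genes it was -0.10, and 11 members were lower, a setting for which no share of all genes was computed. Of 79 members, 9 were higher and 6 lower by at least 1, against 19.3% higher and 8.58% lower over 14223 genes. Rpl36al (1.94), Rpl18 (1.85) and Rps6 (1.75), the target of the S6 kinases, were among the highest. Rps27l (-1.60), Rps3 (-1.55), Rps4l (-1.30) and Rps4x (-1.23) were lowest.

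Between the MGE labels, the summed level was 1.75 ± 0.899% of counts in 18 MGE-derived 1 cells and 2.33 ± 1.88% in 24 MGE-derived 2 cells, a log2 difference of -0.34 (SDs 0.83 and 0.85). Within the Htr3a line it was -0.07, and without the cells that held microglia genes -0.10. In that last setting 10 members were lower, and no share of all genes was computed. Of 79 members, 0 were higher and 23 lower in MGE-derived 1 cells, against 2.61% higher and 22.6% lower over 13837 genes. Among the lowest were Rps3 (-2.74), a small subunit protein that also acts in DNA repair, Rpl22 (-2.63) and Rpl36a (-2.18). Rpl22 was found in 11 of 18 MGE-derived 1 cells, with a median of 21.9 CPM, and in 24 of 24 MGE-derived 2 cells, with a median of 109.8 CPM. Its difference by summed counts was -0.56. The MGE-derived 1 cells also held fewer genes, a median of 4563 against 5493.5 in MGE-derived 2 cells. The highest were Rpl23 (0.81), Rpl8 (0.43), Rpl10a (0.41) and Rplp1 (0.35).

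Between the glutamatergic labels the direction depended on the measure. The summed level was 2.11 ± 1.52% of counts in 33 Glutamatergic 1 cells and 1.39 ± 0.429% in 13 Glutamatergic 2 cells, a log2 difference of 0.44 (SDs 0.76 and 0.49). The median member was lower in Glutamatergic 1 cells, at -0.46 by the mean of logs, and 18 of 79 members were lower and 1 higher by at least 1. Over 12564 genes, 48.7% were lower and 1.19% higher, with a median of -0.97. By summed counts 8 members were higher and 1 lower, against 13.8% higher and 20% lower over all genes, and the members' median was 0.55. Rps7 had the highest difference above 0 (1.14): 89.6 to 1663 CPM with a median of 399 in Glutamatergic 1 cells, and 34.5 to 617 with a median of 191 in Glutamatergic 2 cells. Rps19 (0.83), Rpl11 (0.77) and Rpl35 (0.74) followed. Rps27l (-2.55), Rpl22 (-2.20), Rps4l (-2.07) and Rpl24 (-1.97) were lowest.

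Cajal Retzius cells, early neurons of the outermost cortical layer that secrete reelin, held 1.83 ± 0.556% in 12 cells, against 2.00 ± 1.499% in 35 Htr3a glutamatergic cells. The log2 difference was 0.06 (SDs 0.45 and 0.78). Of 79 members 14 were higher and 1 lower, against 30.5% higher and 9.13% lower over 12873 genes. Rps27l (1.97), Rps20 (1.70), Rps3 (1.39) and Rpl8 (1.32) were highest. By summed counts these members had 0.36, 0.37, 0.59 and 0.33 in the same order. The Cajal Retzius cells also held more genes, a median of 6714 against 5853 in the glutamatergic cells. Rpl22 (-1.54), Rps27a (-0.90), a fusion of ubiquitin and a ribosomal protein, and Rpl6 (-0.87) were lowest. VZ-derived cells held 1.95 ± 0.939% in 11 cells, against 1.90 ± 1.34% in 46 glutamatergic cells, a log2 difference of 0.11 (SDs 0.66 and 0.72), or -0.02 without the cells that held microglia genes. Of 79 members 9 were higher and 7 lower, against 11.6% higher and 14.7% lower over 12256 genes. Rps27l (2.30), Rpsa (1.76), Rpl27a (1.35) and Rpl8 (1.32) were highest, and Rps4x (-2.17), Rpl17 (-1.87), Rpl11 (-1.61) and Rps7 (-1.50) lowest. These comparisons share their glutamatergic cells.

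Undefined cells of the Htr3a line held 2.44 ± 1.03% in 17 cells, against 2.24 ± 1.42% in 97 typed cells, a log2 difference of 0.20 (SDs 0.62 and 0.72). Without the cells that held microglia genes it was 0.11, and 19 members were lower. The share of all genes lower in that set of cells was not computed, so the 19 cannot be read as particular to the members. Of 79 members 4 were higher and 0 lower, against 8.52% higher and 3.3% lower over 14202 genes. The 4 were Rps12 (1.28), Rps27a (1.21), Rpl5 (1.06), which binds the 5S ribosomal RNA, and Rps27l (1.01). Rps4l (-0.99), Rpl24 (-0.85), Rps24 (-0.82) and Rpl11 (-0.80) were lowest.

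Among the 10 comparisons, the summed level differed most between the Lhx6 and Htr3a lines within the MGE labels. In MGE-derived 1 cells the summed level ran from 0.686% to 1.11% of counts with a median of 0.816% in 7 Lhx6 cells, and from 0.947% to 3.19% with a median of 2.39% in 11 Htr3a cells. In 6 of the 7 Lhx6 cells it was below every Htr3a cell. The log2 difference was -1.45, a level 2.72 times higher in Htr3a cells, beyond the SD between cells of 0.22 in Lhx6 and 0.49 in Htr3a cells. Of 79 members 44 were lower and 3 higher by 1 or more in log2, against 16.2% lower and 28.3% higher over 11899 genes. The members' median was -1.21, whereas that of all genes was 0.24. By summed counts 60 members were lower and 0 higher, against 28% lower and 32.6% higher over all genes.

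In MGE-derived 2 cells the summed level ran from 0.714% to 1.66% with a median of 1.21% in 7 Lhx6 cells, and from 1.03% to 9.48% with a median of 2.17% in 17 Htr3a cells. The groups overlap, and all 7 Lhx6 cells were below the Htr3a median. The log2 difference was -1.005 (SDs 0.37 and 0.82). Of 80 members 29 were lower and 0 higher, against 31.7% lower and 8.13% higher over 15422 genes, so the share of members past 1 was near that of all genes. By summed counts 50 were lower and 0 higher, against 36.9% lower and 15.5% higher. Without the 5 Htr3a cells that held 3 or more microglia genes, the log2 difference was -0.65 and 18 members were lower. The share of all genes without these cells was not computed. Of the members past 1, 12 were lower under both MGE labels, 27.3% of the 44 and 41.4% of the 29. These shares are below the 36.2% of counted members that were lower under MGE-derived 2 and the 55.7% that were lower under MGE-derived 1, so the members past 1 under one label were not more often past 1 under the other. Over all genes, 991 were lower under both labels, 51.4% of those lower under MGE-derived 1 and 20.2% of those lower under MGE-derived 2.

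**Figure D5:**
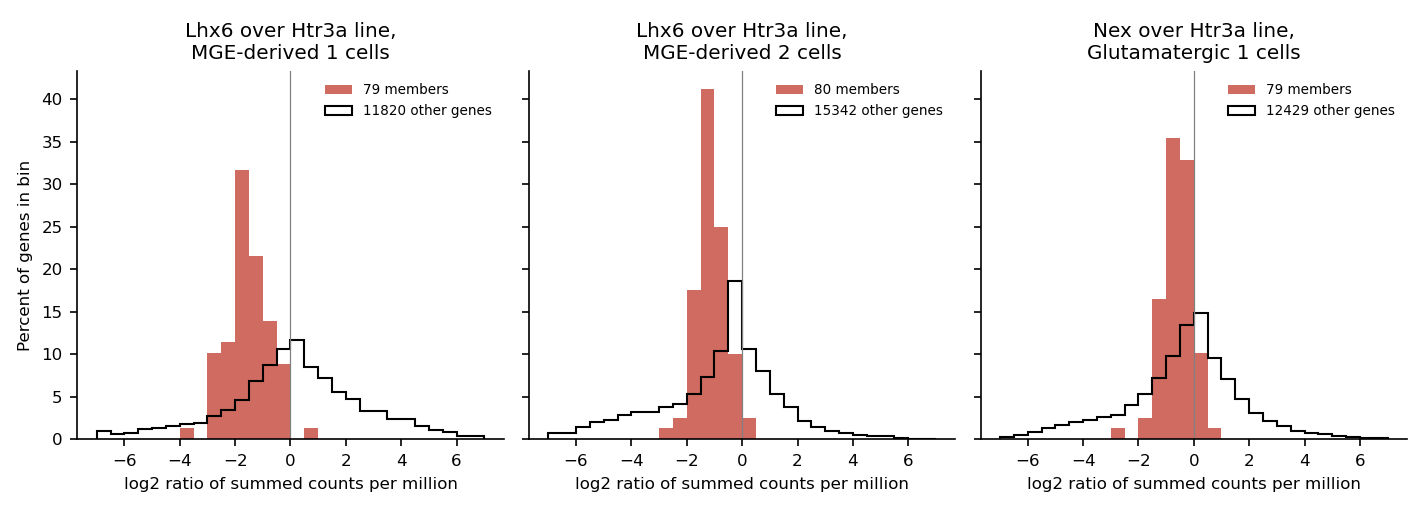
Log2 ratio between lines of CPM from the summed counts of each group (horizontal, 1 panel per comparison) for the members (filled) and all other genes counted (line). The vertical axis is the percent of genes in each bin, and values past the axis are drawn in the last bin. The members centre at -1.60 and -1.13 in the MGE-derived 1 and 2 panels and at -0.57 in the Glutamatergic 1 panel.

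Of the small subunit in MGE-derived 1 cells, Rps29 and Rps7 were the members whose groups did not overlap, 2 of 79, both lower in Lhx6 cells, against 0.0252% of all 11899 genes (3 genes, these members included). Rps29 ran from 11.97 to 76.6 CPM with a median of 51.1 in Lhx6 cells, and from 89.5 to 650 with a median of 165 in Htr3a cells. Rps7 ran from 49.4 to 158 CPM with a median of 88.1 in Lhx6 cells, and from 178 to 776 with a median of 406 in Htr3a cells. Their log2 differences were -1.98 (SDs 0.83 and 0.84) and -1.95 (SDs 0.69 and 0.73). In MGE-derived 2 cells the groups overlapped for both, with medians of 92.5 and 173 CPM for Rps29 and of 186 and 334 CPM for Rps7 in Lhx6 and Htr3a cells. Both were named after their values were seen. Rps24 also stood low in MGE-derived 1 cells (-3.56, counts in 5 of 7 Lhx6 and 10 of 11 Htr3a cells).

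Of the large subunit in MGE-derived 1 cells, Rpl29 had the lowest difference (-4.75, SDs 3.43 and 2.17). It was found in 3 of 7 Lhx6 cells, at 0 to 120.0 CPM with a median of 0, and in 11 of 11 Htr3a cells, at 6.76 to 878 CPM with a median of 313. Rpl37 followed (-3.65), at 0 to 74.3 CPM with a median of 30.5 in Lhx6 cells and 38.6 to 337 with a median of 170 in Htr3a cells. Rpl22, a large subunit protein whose loss mice survive, was found in 3 of 7 Lhx6 and 8 of 11 Htr3a cells (-3.50). The 3 higher members included Rps4x (1.56) and Rpl36al (1.14). Higher members were 7 without the 1 Htr3a cell that held 3 or more microglia genes, and 5 with the authors' normalized values. No share of all genes was computed for these settings. Rps4x had a median of 223 CPM in Lhx6 and 79.5 CPM in Htr3a cells, and it was the sole member above 0 by summed counts (0.63). Below 1 the next was Rpl38 (0.92).

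In MGE-derived 2 cells the lowest were Rpl27a (-3.83), Rps12 (-3.54) and Rps26 (-3.26). Rps12 had a median of 7.72 CPM in Lhx6 cells and 107 CPM in Htr3a cells. The highest were Rps4x (0.68), Rpl5 (0.65), Rpl22 (0.46) and Rps16 (0.17), all below 1. By summed counts Rpl5 (0.23) and Rpl22 (0.46) stayed above 0, whereas Rps4x (-0.91) and Rps16 (-0.90) were below it. Rpl22, low in Lhx6 cells under the MGE-derived 1 label, was found in all 7 Lhx6 cells here, with a median of 94.4 CPM against 110.0 CPM in Htr3a cells.

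The stalk proteins Rplp0, Rplp1 and Rplp2, which recruit elongation factors to the large subunit, had differences below 0 under both labels. Under MGE-derived 1, Rplp0 ran from 0.17 to 618 CPM with a median of 161 in Lhx6 cells, and from 9.38 to 1516 with a median of 739 in Htr3a cells (log2 difference -2.55). Rplp1 had -1.32 and Rplp2 -1.03. Under MGE-derived 2 the differences were -0.88, -0.37 and -0.95 for Rplp0, Rplp1 and Rplp2. Rpsa had a median of 206 CPM in Lhx6 and 764 CPM in Htr3a cells under MGE-derived 1 (-0.93), and of 256 and 910 CPM under MGE-derived 2 (-1.20). Its groups overlapped under both labels. Of the X-linked members besides Rps4x, Rpl36a had -2.27 and -0.82, Rpl39 -1.28 and -1.66, and Rpl10 -0.01 and -2.28 under MGE-derived 1 and 2. The ratio of the large to the small subunit sum had medians of 0.60 (log2) in Lhx6 and 0.67 in Htr3a cells under MGE-derived 1, and of 0.62 and 0.65 under MGE-derived 2.

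Lists of other translation genes are read against the shares of all genes, 28.3% higher and 16.2% lower in Lhx6 MGE-derived 1 cells. Of 31 initiation factors in MGE-derived 1 cells, 16 were higher and 4 lower in the Lhx6 line (median 1.14). Eif4e, the cap-binding protein, had 541 ± 213 CPM in Lhx6 and 314 ± 461 CPM in Htr3a cells (3.90). Eif3e had 4.23, and Eif3b (-2.44) and Eif3k (-2.03) were lowest. Of 9 elongation factors 3 were higher, led by Eef1d (4.55) and Eef1e1 (4.37), and 3 lower, led by Eef1b2 (-2.65) and Eef1g (-1.50). Of 77 mitochondrial ribosomal proteins 27 were higher (35.1%) and 9 lower (11.7%), near the shares of all genes (median 0.53), with Mrpl53 (3.99) and Mrpl10 (3.72) highest and Mrps30 (-2.86) and Mrpl17 (-2.38) lowest. Of 8 other oligopyrimidine mRNAs 1 was higher, Nap1l1 (2.35), with Pabpc1 next (0.62), and 3 were lower, led by Tpt1 (-2.53) and Btf3 (-2.12). Tpt1 had 162 ± 141 CPM in Lhx6 and 550 ± 401 CPM in Htr3a cells. Of 28 biogenesis factors 5 were higher and 9 lower (median -0.04), from Polr1c (-4.59) and Tsr1 (-1.86) to Nop10 (3.77) and Bysl (1.86). Of 12 mTOR pathway genes 5 were higher and 3 lower, among them Rps6kb1 (2.73), Rheb (2.64), Tsc2 (-1.18) and Mlst8 (-1.43). Of the 7 ribosomal protein genes named otherwise, Rpl7l1 was higher (2.48) and Rpl22l1 lower (-1.30), with Rps27rt at 0.96.

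Under MGE-derived 2, where 8.13% of all genes were higher and 31.7% lower, 3 of 31 initiation factors were higher and 11 lower (median -0.60), with Eif1ax (2.31) and Eif4g1 (1.17) highest and Eif3i (-5.11) and Eif3h (-2.96) lowest. Of 9 elongation factors 0 were higher and 4 lower, led by Eef1d (-3.95) and Eef1g (-1.97), while Eif5a (0.40) and Eif5a2 (0.15) stood highest. Eef1d thus lay in the other direction than under MGE-derived 1. Of 77 mitochondrial ribosomal proteins 7 were higher and 39 lower (median -1.06), from Mrpl32 (-3.27) and Mrpl53 (-3.08) to Mrps17 (2.26) and Mrpl30 (1.89). Of 8 other oligopyrimidine mRNAs 3 were lower, led by Tpt1 (-2.18) and Btf3 (-1.50), and 0 higher, with Nap1l1 at 0.33 and Pfdn5 at 0.07. Of 29 biogenesis factors 3 were higher, led by Tsr1 (3.11) and Nop2 (2.12), and 12 lower, led by Dkc1 (-2.65) and Heatr1 (-2.58). Of 12 mTOR pathway genes 0 were higher, with Mlst8 at 0.24 and Larp1 at 0.07, and 8 lower, led by Rps6kb1 (-3.67) and Tsc2 (-3.56). Of the 7 genes named otherwise, Rack1 (-4.13), a scaffold protein of the small subunit, and Fau (-1.66) were lower and Rps27rt (1.14) higher, with Rps3a1 at 0.13.

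Several other measures moved with the line. The pseudogenes of ribosomal proteins, whose sum is tiny beside the members, went the other way: a median of 41.4 CPM in Lhx6 and 14.8 CPM in Htr3a cells under MGE-derived 1, and of 64.2 and 19.1 CPM under MGE-derived 2. Ribosomal RNA, with that of mitochondria included, took a median of 0.103% of counts in Lhx6 and 0.602% in Htr3a cells under MGE-derived 1. Under MGE-derived 2 it took 0.134% and 0.623%. Mitochondrial transcripts had medians of 0.630% and 1.29% under MGE-derived 1, and of 1.34% and 0.969% under MGE-derived 2, in Lhx6 and Htr3a cells. Median total counts were 6096682 in Lhx6 and 9678764 in Htr3a cells under MGE-derived 1, and 7140123 and 9325197 under MGE-derived 2. The sum of 10 microglia markers ran from 0 to 9.02 CPM in Lhx6 cells and from 0 to 15760 CPM in Htr3a cells under MGE-derived 1, and from 0 to 0.873 and from 0 to 15571 CPM under MGE-derived 2, where all 10 were lower in Lhx6 cells by 1 or more. Without the cells that held microglia genes the MGE-derived 1 difference was -1.40. The nuclear-retained RNA Snhg11 had medians of 1196 CPM in Lhx6 and 195 CPM in Htr3a cells under MGE-derived 1, and of 619 and 195 CPM under MGE-derived 2. Erythrocyte markers had medians of 39.2 and 8.19 CPM under MGE-derived 1, and of 38.6 and 22.2 CPM under MGE-derived 2. The part of the other measures in the result was not tested.

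Among other protein-coding genes at 20 CPM or more with a transcript under 1000 bases, the median log2 ratio of summed counts of Lhx6 over Htr3a cells was -0.24 under MGE-derived 1 (480 genes) and -0.19 under MGE-derived 2 (505 genes). The members had medians of -1.60 and -1.13 on the same measure. Between members with and without the pyrimidine run at their annotated start, the medians by summed counts were -1.56 (13 members) and -1.65 (45 members) under MGE-derived 1, and -1.10 (13) and -1.19 (46) under MGE-derived 2. By the mean of logs they were -0.69 with the run and -1.29 without under MGE-derived 1, and -0.95 and -0.94 under MGE-derived 2. In Nex against Htr3a Glutamatergic 1 cells they were -0.57 with the run and -0.46 without by summed counts, and -1.06 and -0.68 by the mean of logs.

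The Nex line was set against the Htr3a line within the Glutamatergic 1 label. The summed level ran from 1.03% to 2.77% of counts with a median of 1.55% in 10 Nex cells, and from 0.629% to 7.61% with a median of 1.67% in 23 Htr3a cells. The groups overlap, and the log2 difference of -0.28 was below both SDs between cells (0.49 and 0.85). By the mean of logs 41 of 79 members were lower and 4 higher, against 19.1% lower and 14.3% higher over 12508 genes, with medians of -1.05 for members and -0.10 for all genes. By summed counts 16 were lower and 0 higher, against 30.6% lower and 21.6% higher over all genes, and the members' median was -0.57. Nex cells more often lacked any count of a member: a median of 69 members had a count in a Nex cell and 75 in a Htr3a cell. Snhg11 had a median of 0.0733 CPM in Nex and 811 CPM in Htr3a cells, and erythrocyte markers 0 and 38.6 CPM, and their part in the result was not tested. Other coding genes with a transcript under 1000 bases had a median of -0.55 by summed counts (499 genes), close to the members.

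The lowest members in Nex cells were Rps4x (-3.08), Rpl39 (-3.05), Rps10 (-2.99) and Rps6 (-2.90). Rps6 ran from 0 to 277 CPM with a median of 44.2 in Nex cells, and from 0 to 908 with a median of 131 in Htr3a cells. Rps10 was found in 5 of 10 Nex and 21 of 23 Htr3a cells. The other X-linked members Rpl36a (-1.61) and Rpl10 (-1.31) were also lower, as were Rps27 (-2.86), Rps4l (-2.16), Rplp1 (-2.07), Rpl36al (-1.65) and Rplp2 (-1.15). The highest by the mean of logs were Rpl8 (1.62), Rpl10a (1.31), Rpl30 (1.28) and Rps23 (1.21). By summed counts Rpl8 had -0.10, against 0.64 for Rpl10a, 0.29 for Rpl30 and 0.18 for Rps23. Rpl8 had a count in 9 of 10 Nex and 15 of 23 Htr3a cells. Rps23, which sits at the decoding centre, ran from 93.7 to 465.6 CPM with a median of 257 in Nex cells and from 0 to 1871 with a median of 142 in Htr3a cells. Rplp0 (-0.53), Rpsa (0.78), Rps27l (-0.22), Rps29 (-0.32) and Rps7 (-0.01) lay within 1.

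Among the other translation genes in Nex cells, to be read against 14.3% of all genes higher and 19.1% lower, 4 of 31 initiation factors were higher, led by Eif4h (2.95) and Eif1b (2.42), and 6 lower, led by Eif3k (-4.42) and Eif2s1 (-2.90). Of 9 elongation factors 0 were higher, with Eef1e1 at 0.73 and Eif5a at 0.70, and 3 lower, led by Eef1g (-2.55) and Eif5a2 (-1.42). Of 77 mitochondrial ribosomal proteins 8 were higher and 25 lower (median -0.63), from Mrpl14 (-3.77) and Mrps24 (-3.16) to Mrps2 (2.96) and Mrps10 (2.79). Of 29 biogenesis factors 6 were higher and 10 lower, with Gnl3 (4.96) and Wdr12 (3.67) highest and Rrn3 (-2.48) and Nop10 (-2.33) lowest. Gnl3, nucleostemin, had 561 ± 657 CPM in Nex and 135 ± 216 CPM in Htr3a cells. Of 8 other oligopyrimidine mRNAs 2 were higher, Nap1l1 (1.94) and Hnrnpa1 (1.11), and 3 lower, led by Naca (-3.35) and Tpt1 (-1.79). Of 12 mTOR pathway genes 3 were higher, led by Tsc1 (1.83) and Mlst8 (1.12), and 6 lower, led by Tsc2 (-2.18) and Rptor (-1.93). Of the 7 genes named otherwise, Fau (-3.28) and Rps3a1 (-1.09) were lower, and Rpl7l1 (0.39) stood highest.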

How the data were processed

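RNA of single cells of mouse embryos was counted per gene. Reads were trimmed with Trimmomatic, aligned with STAR to GRCm38 and counted with featureCounts, per the submitters' processing notes; their versions, and whether strand was used, are not given in the sources used here. The authors deposited raw read counts per Ensembl gene and a table of normalized values, a signal that equals the counts times 1 factor per cell (for 99.8% of values above 0, within 0.1%). From the deposited counts, CPM were computed over the cell total (1710224 to 24836041 counts). No molecular identifiers are named. The intervals given are for shares of cells with a count and cover the counting of cells only. Symbols matched 22570 of 22880 identifiers; lengths and positions are from GENCODE on GRCm38.

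Differences are of means over cells of log2(CPM + 1), or log2 ratios by summed counts. For the latter a gene's counts were summed over the cells of a group and scaled to the summed total of the group, so cells with more counts weigh more. Genes enter when 10% or more of the cells in one of the groups hold them. A difference of 1 or more is called higher or lower. No label names an animal, so there is no test. Named were the 10 highest and 5 lowest members per kilobase, up to 4 members in each direction per comparison, paralogs, stalk, Rpsa and X-linked members, the 10 and 5 genes of highest and lowest likeness, and up to 2 genes in each direction per list. Members and lists were chosen with earlier results of these data known. The calculation of differences was checked on simulated counts with known changes. The changes were set in well-expressed genes only, so the check does not cover members that many cells lacked. Python 3.11.15, pandas 2.3.3, numpy 2.4.6, scipy 1.17.1 and matplotlib 3.10.9 were used. Some genes named by this rule are not reported here.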

Additional observations from a re-analysis of the deposited data

Results flagged for a closer look

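In groups of 4 to 10 cells, the summed level and the ratio of the large to the small subunit sum were searched for a cell far from the others, 12 searches in all, of which chance flags about 1 in 20. It picked out 1 value. Among the 8 VZ-derived cells of the Htr3a line, cell 7 had a log2 ratio of large over small subunit counts of 1.72, and the next cell had 0.72. The gap was 0.77 of the range of the group. This cell had 4746 genes, 8746832 counts and 0.758% of its counts in ribosomal protein genes, the lowest of its group.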

How the results depend on the processing

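The summed level was recomputed in 84 alternatives, and in none did the difference move by as much as the smaller SD between cells of its groups. Outside the Lhx6 comparisons the differences were themselves below that SD, so they could vanish or turn without counting as moved. That of GABAergic against glutamatergic cells ranged from 0.02 to 0.45. Of the 84 alternatives 79 kept the sign. The 5 of the other sign were all of differences below 0.20: MGE-derived against CGE-derived and VZ-derived against glutamatergic cells turned with cells of 4000 to 8000 genes and without cells that held microglia genes, and Cajal Retzius against glutamatergic cells turned with the authors' normalized values. For the Lhx6 line the difference ranged from -1.65 to -1.32 under MGE-derived 1 and from -1.17 to -0.65 under MGE-derived 2, and for the Nex line from -0.42 to -0.13. Leaving out cells that held microglia genes was chosen after seeing the data. Of 100 recomputed counts of higher or lower members, 69 stayed within 1.5 times and 31 did not. By summed counts in place of the mean of logs, lower members were 16 in place of 41 for the Nex line, 50 in place of 29 for the Lhx6 line under MGE-derived 2, 8 in place of 23 for MGE-derived 1 against 2, and 1 in place of 18 for Glutamatergic 1 against 2, where higher members were 8 in place of 1. Of all genes 30.6%, 36.9%, 25.2% and 20% were lower by summed counts, in the same order. In Glutamatergic 1 cells 13.8% of all genes were higher. Higher members were 0 in place of 6 in GABAergic, 1 in place of 9 in VZ-derived, 1 in place of 9 in MGE-derived and 0 in place of 14 in Cajal Retzius cells. Of all genes 15.8%, 14.3%, 31.9% and 16.3% were higher by summed counts, in the same order. With the authors' normalized values, higher members were 11 in GABAergic and 17 in MGE-derived cells, a setting for which no share of all genes was computed. No paired analysis was possible because replicate numbers only follow the order of deposit and no value comes from a test. Where a member had no count in a cell, its mean of logs is set mostly by how often it was found.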

Other observations

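The 14 cells labelled as failed were not used above. The ribosomal protein genes took 1.39% to 2.54% of the counts (median 1.98%) in the 5 failed Lhx6 cells, against 0.671% to 1.90% (median 1.08%) in the 17 passed Lhx6 cells. The failed Lhx6 cells held 1889 to 3919 genes and 48 to 61 members. In the 8 failed Htr3a cells the share ran from 0.474% to 4.43%, and the 1 failed Nex cell had 1.06%. A failed Htr3a cell held 122 counts in all.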
